A study of Mus musculus with 10 samples.

Results

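The genotype by IL-4 interaction asks, for each gene, whether IL-4 moved its transcript differently in peritoneal macrophages of the 2 genotypes. The term is the IL-4 minus saline difference in the knockout less the same difference in the wild type, on a log2 scale, so it is above 0 where IL-4 raised a gene more, or lowered it less, in the knockout. It was formed from all 10 of the 10 libraries of the series, in 4 groups. All mice were C57BL/6. The knockout mice carried a floxed allele and LysM-Cre, a Cre recombinase expressed from the Lyz2 locus of myeloid cells. The labels call the control mice wild type in one protocol and floxed in another. They are taken here to be floxed mice without Cre and are called wild type. Mice were given saline (basal) or IL-4 in complex with an anti-IL-4 antibody, both into the peritoneum, and 36 hours later the cavity was washed with 5 ml of PBS and the macrophages were then sorted by their CD64, CD115 and ICAM-2. The wild-type basal and knockout basal groups have 2 libraries each, and the wild-type IL-4 and knockout IL-4 groups have 3 each. The genotypes also differ in carrying Cre, and the labels do not give the age or sex of the mice and do not tie each library to an animal; the p-values therefore measure only the spread between these samples, which may be technical.

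IL-4 signals through STAT6 and drives tissue macrophages into alternative activation, a state marked by genes such as Arg1, Retnla and Chil3, and it also makes resident peritoneal macrophages divide. A term for the interaction can arise in any of the 4 groups. For each gene the group that carries it was therefore named: the group that stood apart from the other 3, where those 3 means of log2(CPM + 1) spanned at most 50% of the term and the gap exceeded that span. CPM is the count of a gene scaled to the reads counted in the tested genes of its library, after adjustment by the TMM normalization factor of that library.

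Lyz2, the locus that drives Cre, had a term of 0.99 ± 0.53 (edgeR adjusted p = 0.405), which did not pass. Lyz2 was at 23599.7 and 21903 CPM in the wild-type basal libraries, 7046, 5912 and 6457 in wild-type IL-4, 2664 and 9675 in knockout basal and 4096, 3504 and 2845 in knockout IL-4.

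The 10 libraries held 8762403 to 15024073 counted reads, and 11614 of 22165 identifiers had enough reads to test. Macrophage identity genes were present in each group. Csf1r, the gene of CD115, stood at 248 to 368 CPM over the 10 libraries and Adgre1 (F4/80) at 559 to 885. Levels of the others differed by group. Fcgr1 (CD64) was at 34.0 to 37.5 CPM in wild-type basal, 21.7 to 27.7 in knockout basal, 8.58 to 11.6 in wild-type IL-4 and 7.99 to 13.6 in knockout IL-4. Icam2 was at 833 to 1154, 525 to 714, 298 to 588 and 275 to 488 CPM in the same order. Itgam (CD11b) was at 2969 to 4153 CPM in wild-type basal and 1910 to 2650 in the rest. None of these genes had a called term. Transcripts of other cell types were present as well, most of all those of B cells in the knockout basal libraries, and the summed levels of the larger marker lists are given with their counts. In sorted bulk samples, fewer cells of a type and less RNA per cell cannot be told apart.

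The interaction passed the test in 326 of 11614 genes (2.81%), with a term above 0 in 119 (1.02%) and below 0 in 207 (1.78%). The median term over all tested genes was 0.01, the smallest term among the 326 was 1.07 in size, and 231 of them had a term of 2 or more in size. At an unadjusted p under 0.05 there were 1778 genes. In 261 of the 326 the sign of the genotype difference turned between saline and IL-4. This counts signs alone, whether or not either difference passed, and its share over all tested genes was not counted. Both differences passed with opposite signs in 9 genes. In the largest class below, the 90 genes high in knockout basal, the median genotype difference after IL-4 was -0.24. In 115 of the 119 higher genes the knockout was below the wild type under basal conditions and above it after IL-4. The reverse was seen in 146 of the 207 lower genes. These are the same sign turns split by direction, and selecting genes on a large term favours them by itself. The genotype difference passed under basal conditions alone in 218 of the 326 genes, after IL-4 alone in 32, in both in 10 and in neither in 66. Over all tested genes it passed in 4.14% under basal conditions (2.61% higher and 1.53% lower in the knockout) and in 0.827% after IL-4. The IL-4 response passed in 86 of the 326 upward and 42 downward in the wild type, where 6.06% of all tested genes passed (3.26% up, 2.8% down), and in 75 upward and 142 downward in the knockout, where 7.6% passed (4.09% up, 3.51% down). These contrasts share libraries with the interaction and are set beside it as a description. With knockout basal replicate 1 left out the interaction passed in 182 genes (45 higher), and in 212 (60 higher) with wild-type IL-4 replicate 1 left out. The higher genes numbered 75, 71 and 72 when knockout basal replicate 2, wild-type basal replicate 2 or wild-type IL-4 replicate 3 was dropped. Of the 326, 123 passed in each of the 10 fits that left out 1 library (26 higher and 97 lower).

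**Figure D1:**
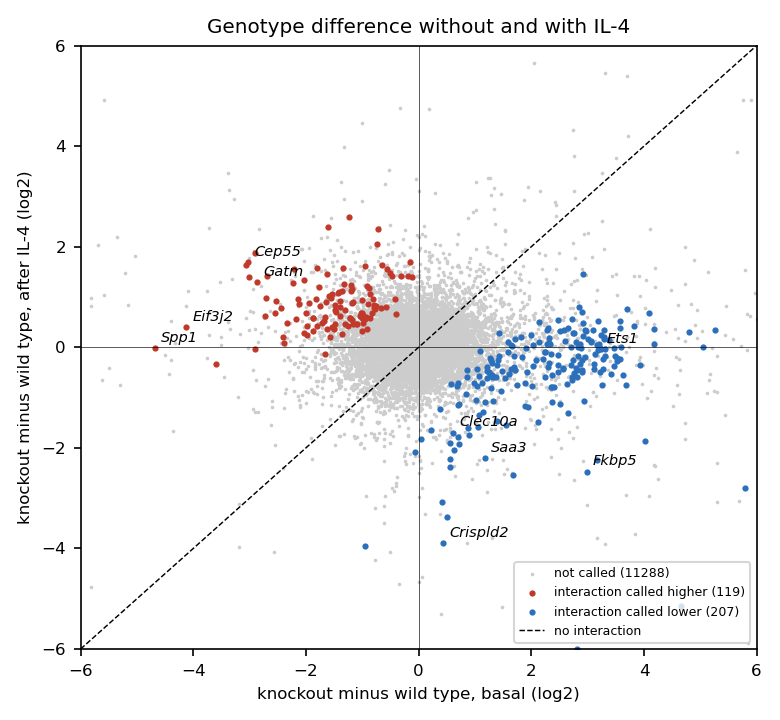
Each point is 1 tested gene: the knockout minus wild-type difference (log2) under basal conditions on the x axis and after IL-4 on the y axis, with genes of a called interaction in red (119 higher) and blue (207 lower). Called genes lie off the dashed line of equal differences, mostly spread along the x axis, and 68 genes lie outside the plotted range of 6 to either side.

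The knockout basal group carried more of the called terms than any other group. It carried 111 of 326 (34.0%), against 10.2% of all tested genes. The group stood high in 90 of them, which gives a term below 0, and low in 21, which gives a term above 0. The wild-type basal group carried 51 (15.6%, against 10.4% of all tested genes), standing high in 20 and low in 31. The wild-type IL-4 group carried 10 (7 high, 3 low) and the knockout IL-4 group 10 (4 high, 6 low), which is 3.07% of the called genes each, against 4.79% and 7.18% of all tested genes. In the other 144 called genes (44.2%) no single group stood apart. Of the 182 genes carried by 1 group, 178 had every library of that group outside the libraries of the other 3. Among all tested genes carried by 1 group it was 1592 of 3785. The 182 were selected on these same libraries, so their separation is no independent support. These counts describe group means and were not tested. The means of the basal groups rest on 2 libraries each and those of the IL-4 groups on 3, so the basal means are less certain. The 2 smaller classes are the least stable: the knockout IL-4 group carried 21 and 25 genes without its own replicates 1 and 2, and 5 when wild-type IL-4 replicate 1 was dropped, while the wild-type IL-4 group carried 3 to 6 without either basal replicate of either genotype or without its own replicate 1. The wild-type basal group carried 94 without its own replicate 1, 25 without knockout basal replicate 1 and 33 when wild-type IL-4 replicate 1 was dropped. Genes with no single group apart fell to 57 without knockout basal replicate 1 and to 86 or 87 without its replicate 2, without wild-type basal replicate 2 and when replicate 1 or 3 of wild-type IL-4 was dropped.

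**Figure D2:**
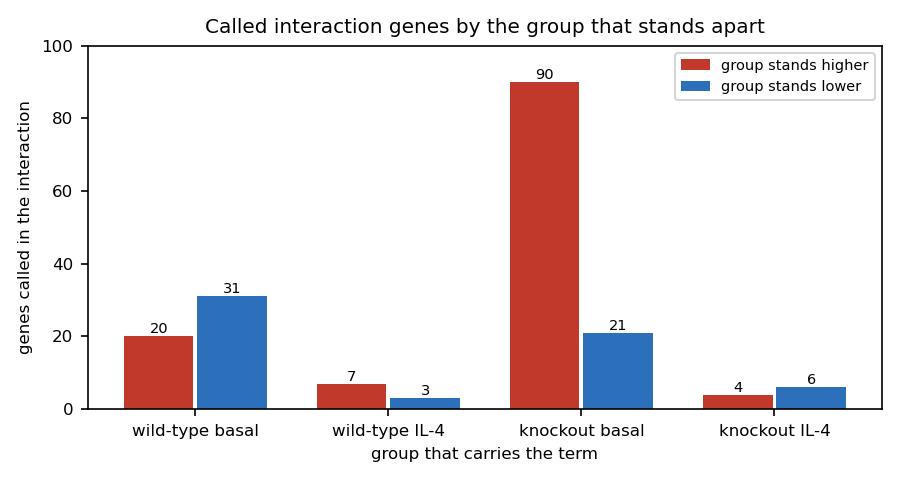
Bars give the number of called interaction genes carried by each of the 4 groups, split by whether that group stood higher (red) or lower (blue) than the other 3. The knockout basal group standing high, with 90 genes, is the largest class.

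Of the 90 genes on which the knockout basal group stood high, 14 are on the B cell list, 1 is on the T and NK cell list and 65 are on no list. Ets1 and Siglecg had the smallest p of the class. Ets1 (chr9, ENSMUSG00000032035), a transcription factor of lymphoid cells, had a term of -3.27 ± 0.31 (edgeR adjusted p = 7.19e-05). Ets1 was at 36.5 and 44.3 CPM in the wild-type basal libraries, 75.3, 97 and 93.5 in wild-type IL-4, 413 and 348 in knockout basal and 83, 90.3 and 86.1 in knockout IL-4. The knockout basal libraries stood above the rest without overlap, and after IL-4 the 2 genotypes lay within the same range. Siglecg (chr7, ENSMUSG00000030468), a sialic-acid-binding inhibitory receptor of B cells, had a term of -3.8 ± 0.37 (edgeR adjusted p = 7.19e-05). Siglecg was at 10.1 and 12.2 CPM in the wild-type basal libraries, 33.4, 29.7 and 29.2 in wild-type IL-4, 123 and 143 in knockout basal and 19.8, 30.4 and 28.8 in knockout IL-4. The order of the groups was the same as for Ets1. Scd1, the stearoyl-CoA desaturase that makes monounsaturated fatty acids, was the called member of 31 tested genes of cholesterol and fatty acid synthesis. The share called over all tested genes was 2.81%. Scd1 was at 5.29 and 7.11 CPM in the wild-type basal libraries, 9.98, 19.1 and 10.5 in wild-type IL-4, 62.2 and 80.4 in knockout basal and 12.9, 11.1 and 8.89 in knockout IL-4. Its term was -3.8 ± 0.47 (edgeR adjusted p = 0.000593). Zbtb16, the transcription factor PLZF, had a term of -1.68 ± 0.29 (edgeR adjusted p = 0.00459), with 331 and 328 CPM in the knockout basal libraries and 119 to 173 CPM in the other 8. The median term of the 90 genes was -2.91, a value that follows in part from how the class was formed.

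The B cell markers moved together in this class. Of 23 tested B cell markers 18 had a called negative term and none a positive one, with a median of -3.24 against 0.01 over all tested genes, and 14 of the 18 were carried by the knockout basal group. Over all tested genes 1.78% were called lower. Cd79a, a chain of the B cell receptor complex, had a term of -3.43 ± 0.42 (edgeR adjusted p = 0.000593). Cd79a was at 15.5 and 21.5 CPM in the wild-type basal libraries, 44.5, 36.8 and 28.7 in wild-type IL-4, 149.8 and 169 in knockout basal and 23, 39.9 and 24.7 in knockout IL-4. Ebf1 (chr11, ENSMUSG00000057098), a transcription factor that fixes B cell identity, had a term of -3.73 ± 0.36 (edgeR adjusted p = 7.19e-05). Ebf1 was at 16.9 and 21.1 CPM in the wild-type basal libraries, 74.9, 85.3 and 63.7 in wild-type IL-4, 192 and 242 in knockout basal and 67.4, 75.4 and 50.6 in knockout IL-4. Ebf1 was lowest in the wild-type basal libraries and highest in the knockout basal libraries, with both IL-4 groups between them, and by the rule no single group carried it. The summed level of the 23 markers was 312 and 507 CPM in the wild-type basal libraries, 711 to 807 in the wild-type IL-4 libraries, 2065 and 2385 in the knockout basal libraries and 777 to 848 in the knockout IL-4 libraries. Between 15 and 18 of them passed in the fits that left out 1 library. Of the 326 called genes 26 stand on a list of another cell type, B cells included, and 251 on none of the 25 lists, which do not hold every gene that such cells express. The part of B cell RNA in the called terms was not tested by a measure independent of the groups, since 95.6% of the variance of the summed B cell markers lies between the 4 groups.

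**Figure D3:**
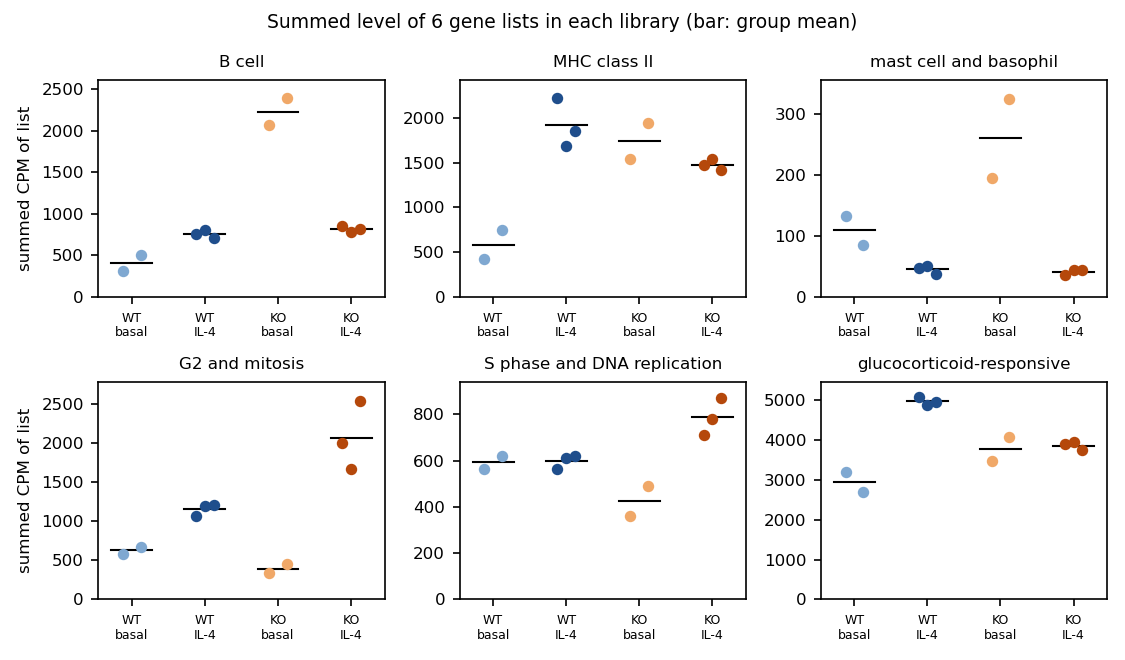
Summed CPM of the tested members of 6 gene lists in each of the 10 libraries, by group, with the bar at the group mean. B cell and mast cell genes are highest in the knockout basal libraries, MHC class II genes lowest in the wild-type basal libraries, and mitosis genes lowest in the knockout basal and highest in the knockout IL-4 libraries.

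Genes that present peptides on MHC class II also had negative terms, but for most of them the wild-type basal group was the one apart. Of 11 tested members 7 were called, all lower, with a median term of -2.16, and 4 of the 7 were carried by the wild-type basal group standing low. The share called lower over all tested genes was 1.78%. Cd74, the invariant chain that guides class II molecules, had a term of -2.44 ± 0.37 (edgeR adjusted p = 0.00197). Cd74 was at 75.7 and 119 CPM in the wild-type basal libraries, 464, 360.1 and 387 in wild-type IL-4, 350.0 and 545 in knockout basal and 286, 339 and 404 in knockout IL-4. H2-Eb1, a class II beta chain, had a term of -2.16 ± 0.36 (edgeR adjusted p = 0.00375). H2-Eb1 was at 67.3 and 122 CPM in the wild-type basal libraries, 381, 280.2 and 298 in wild-type IL-4, 281 and 340.0 in knockout basal and 242, 248 and 212 in knockout IL-4. IL-4 raised these transcripts from a low level in the wild type, whereas in the knockout they stood at that higher level already with saline. H2-Ob, a chain of the class II regulator H2-O that is found mainly in B cells, was carried by the knockout basal group instead, with a term of -2.88 ± 0.47 (edgeR adjusted p = 0.00306). B cells also express MHC class II, and their summed markers were 2065 and 2385 CPM in the knockout basal libraries and 312 and 507 CPM in the wild-type basal libraries, while the class II sum was 1539 and 1945 against 421 and 742 CPM; the part of B cell RNA in these terms was not tested. Without knockout basal replicate 2, 4 of the 11 genes passed.

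The remaining genes on which the wild-type basal group stood low included Bcl11a, a zinc-finger transcription factor of lymphoid and dendritic lineages. Bcl11a was at 18.4 and 34.1 CPM in the wild-type basal libraries, 74.4, 90.5 and 89.3 in wild-type IL-4, 193 and 243 in knockout basal and 97.5, 95.8 and 80.7 in knockout IL-4. Its term was -2.94 ± 0.38 (edgeR adjusted p = 0.000829). Tpm3-rs7 had the smallest p of the class, with a term of -4.92 ± 0.53 (edgeR adjusted p = 0.000296), but it is a near copy of Tpm3, whose term was 1.26 ± 0.33 (edgeR adjusted p = 0.0517) in the opposite direction, so reads may have been split between them and both values are uncertain. Cd93, a receptor with a part in the removal of dying cells, was the second called member, beside Stab1, of 36 tested efferocytosis receptors and bridging molecules. Cd93 was at 425 and 340.3 CPM in the wild-type basal libraries, 1018, 959 and 891 in wild-type IL-4, 852 and 769 in knockout basal and 919, 940.0 and 865 in knockout IL-4. Its term of -1.16 ± 0.27 (edgeR adjusted p = 0.0267) was lost without knockout basal replicate 1 or 2, wild-type basal replicate 2 or wild-type IL-4 replicate 1, 2 or 3 (adjusted p 0.0535 to 0.122). Stab1, which recognises phosphatidylserine on dying cells, had a term of -2.08 ± 0.36 (edgeR adjusted p = 0.00488) with no single group apart. Stab1 was at 14 and 19.8 CPM in the wild-type basal libraries, 30.6, 27.7 and 26.8 in wild-type IL-4, 42 and 39.9 in knockout basal and 14, 17.4 and 17.4 in knockout IL-4. The median term of the 36 genes was -0.32, and the share called over all tested genes was 2.81%.

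On the opposite side, 20 genes stood high in the wild-type basal group. Dnajb12, an endoplasmic reticulum co-chaperone, had a term of 2.87 ± 0.42 (edgeR adjusted p = 0.0016). Dnajb12 was at 76.7 and 63.9 CPM in the wild-type basal libraries, 17.6, 11.2 and 13.2 in wild-type IL-4, 8.0 and 10.6 in knockout basal and 17, 11 and 12.8 in knockout IL-4. Its 2 wild-type basal libraries lay above all others, and the 2 IL-4 groups overlapped. Fabp5, a fatty-acid-binding protein, had a term of 3.35 ± 0.67 (edgeR adjusted p = 0.0187). Fabp5 was at 1645 and 1283 CPM in the wild-type basal libraries, 279, 464 and 385 in wild-type IL-4, 197 and 245 in knockout basal and 247, 1070.2 and 427 in knockout IL-4. One knockout IL-4 library, replicate 2, came near the wild-type basal libraries, and the call was lost without knockout basal replicate 1 or 2, wild-type basal replicate 1 or 2 or wild-type IL-4 replicate 3 (adjusted p 0.054 to 0.141). Clec5a, a myeloid C-type lectin receptor, had a term of 4.41 ± 0.82 (edgeR adjusted p = 0.0125), lost without knockout basal replicate 1 or 2 (adjusted p 0.0851 to 0.108). Its 2 wild-type basal libraries were far apart, at 133 and 48.3 CPM, and the other 8 ranged from 6.94 to 50.4 CPM, so the groups overlapped. Col18a1, which encodes a basement membrane collagen, had a term of 3.39 ± 0.78 (edgeR adjusted p = 0.0275), lost without knockout basal replicate 1 or 2, wild-type basal replicate 1 or wild-type IL-4 replicate 1 or 2 (adjusted p 0.0506 to 0.184). Ndufs4, a subunit of respiratory complex I, was the called member of 60 tested genes of the respiratory chain and ATP synthase, whose median term was 0.21. Of all tested genes 2.81% were called. Ndufs4 was at 217 and 539.6 CPM in the wild-type basal libraries, 90.0, 112 and 133 in wild-type IL-4, 98.7 and 85.3 in knockout basal and 97.3, 139 and 171 in knockout IL-4. Its 2 wild-type basal libraries differed from each other by more than the other groups did from one another, and its term of 2.33 ± 0.48 (edgeR adjusted p = 0.016) was lost without knockout basal replicate 1 or 2, wild-type basal replicate 2 or wild-type IL-4 replicate 1 (adjusted p 0.0542 to 0.0955). Eif3j2 had a term of 4.53 ± 0.49 (edgeR adjusted p = 0.000228), but it is a near copy of Eif3j1, whose term was -1.31 ± 0.39 (edgeR adjusted p = 0.0979), so its reads may be shared and its value is uncertain.

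The 21 genes on which the knockout basal group stood low were led by Gatm (chr2:122594467-122611303, ENSMUSG00000027199, mm10), the glycine amidinotransferase that makes the precursor of creatine. Gatm was at 81.2 and 72.7 CPM in the wild-type basal libraries, 64.5, 83 and 59.9 in wild-type IL-4, 10.2 and 10.9 in knockout basal and 186, 184 and 137 in knockout IL-4. The knockout basal libraries were at the bottom, the knockout IL-4 libraries at the top and both wild-type groups between them. Its term of 4.15 ± 0.35 (edgeR adjusted p = 4.38e-05) had the smallest p of all genes tested. IL-4 raised Gatm by log2 4.0 ± 0.29 in the knockout, and in the wild type the change was -0.15 ± 0.24 (edgeR adjusted p = 0.77). Spp1, which encodes the matrix protein osteopontin, had a term of 4.66 ± 0.73 (edgeR adjusted p = 0.00373), a call lost in the limma voom test (adjusted p = 0.0760). Spp1 was at 65.2 and 19.6 CPM in the wild-type basal libraries, 32.9, 22.1 and 52.2 in wild-type IL-4, 2.16 and 1.16 in knockout basal and 27.5, 38.9 and 39 in knockout IL-4. Its knockout basal libraries stood below all others, and after IL-4 the genotypes overlapped. Spp1 and Cxcl13, a chemokine that the list also holds, were the called members of the 21 tested genes of the matrix and clotting list, whose median term was -0.18. Of all tested genes 2.81% were called.

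**Figure D4:**
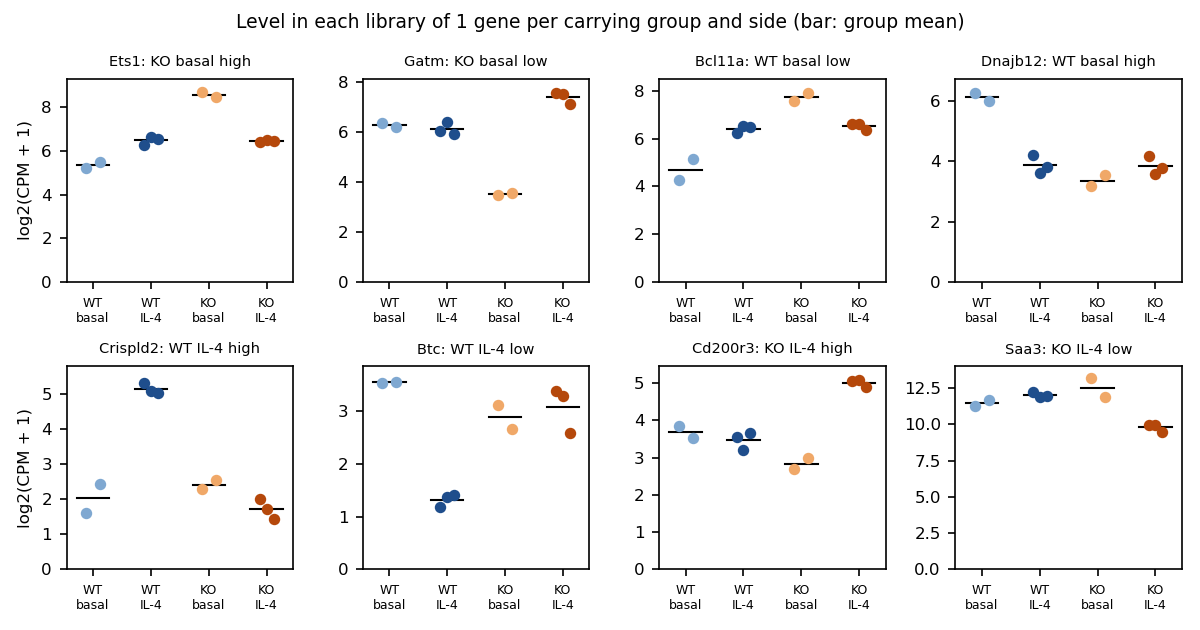
Level in each library, as log2(CPM + 1), of 1 gene for each carrying group and side, with the bar at the group mean. In each panel the libraries of the named group lie apart from those of the other 3 groups.

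By the rule, few terms were carried by a group that had received IL-4. The rule can hardly name such a group where IL-4 moved a gene strongly in both genotypes. In Chil3 the other 3 means spanned 7.38 against a term of -2.06 on the log2(CPM + 1) scale, so no group was named. The wild-type IL-4 group stood high for Crispld2 (chr8, ENSMUSG00000031825), which encodes a secreted protein induced by glucocorticoids. Crispld2 was at 2.08 and 4.37 CPM in the wild-type basal libraries, 39.2, 32.8 and 31.6 in wild-type IL-4, 3.89 and 4.83 in knockout basal and 3.05, 2.3 and 1.68 in knockout IL-4. IL-4 raised it by log2 3.41 ± 0.39 in the wild type, and in the knockout its change was -0.91 ± 0.37 (edgeR adjusted p = 0.156). The term was -4.32 ± 0.53 (edgeR adjusted p = 0.000593). C5ar1, the receptor of the complement fragment C5a, had a term of -1.85 ± 0.32 (edgeR adjusted p = 0.00514). C5ar1 was at 81.4 and 65 CPM in the wild-type basal libraries, 226, 182 and 179.8 in wild-type IL-4, 118 and 119.7 in knockout basal and 87.4, 103 and 74.5 in knockout IL-4. For both genes the 3 wild-type IL-4 libraries were above all others. Mmp8, a collagenase best known from neutrophils, had a term of -4.21 ± 0.80 (edgeR adjusted p = 0.00812), lost without knockout basal replicate 2 (adjusted p = 0.0705). Mmp8 was at 0.85 and 0.343 CPM in the wild-type basal libraries, 17.4, 13.4 and 11.6 in wild-type IL-4, 1.19 and 2.59 in knockout basal and 2.84, 3.3 and 1.2 in knockout IL-4. It was low in each library outside the wild-type IL-4 group. The wild-type IL-4 group stood low for Btc, the growth factor betacellulin, which binds the EGF receptor. Btc was at 10.7 and 10.8 CPM in the wild-type basal libraries, 1.27, 1.6 and 1.65 in wild-type IL-4, 7.68 and 5.37 in knockout basal and 9.44, 8.83 and 5.05 in knockout IL-4. Its term was 3.08 ± 0.56 (edgeR adjusted p = 0.00629). Dgkg, a diacylglycerol kinase, had a term of 1.83 ± 0.42 (edgeR adjusted p = 0.0246), lost without knockout basal replicate 1, wild-type basal replicate 1 or wild-type IL-4 replicate 1 (adjusted p 0.0763 to 0.144). Dgkg was at 103 and 69.4 CPM in the wild-type basal libraries, 14.3, 19.4 and 19.9 in wild-type IL-4, 62.7 and 92.8 in knockout basal and 72.5, 42.1 and 58.3 in knockout IL-4. For both, the 3 wild-type IL-4 libraries were the lowest of the 10.

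The knockout IL-4 group stood high for Cd200r3 (chr16, ENSMUSG00000036172), an activating receptor of the CD200R family known from mast cells and basophils. Cd200r3 was at 13.4 and 10.6 CPM in the wild-type basal libraries, 10.7, 8.31 and 11.7 in wild-type IL-4, 5.52 and 6.89 in knockout basal and 32.6, 32.9 and 28.7 in knockout IL-4. Its knockout IL-4 libraries lay above all others, and its term was 2.57 ± 0.40 (edgeR adjusted p = 0.00237). The summed markers of mast cells and basophils were lowest in the 2 IL-4 groups, at 38.1 to 50.7 CPM in the wild type and 36.1 to 44.4 CPM in the knockout. Most of these sums came from 1 member, Hdc, at 34.5 to 46.4 CPM and 34.0 to 42.6 CPM. The part of mast cell or basophil RNA in the Cd200r3 term was not tested. Impact, an inhibitor of the amino-acid-sensing kinase GCN2, had a term of 1.61 ± 0.34 (edgeR adjusted p = 0.0169), lost without knockout basal replicate 1, wild-type basal replicate 1 or wild-type IL-4 replicate 1 or 3 (adjusted p 0.0519 to 0.106). Impact was at 68.7 and 48 CPM in the wild-type basal libraries, 41.3, 49.8 and 42.7 in wild-type IL-4, 44.8 and 57.4 in knockout basal and 118, 133 and 109 in knockout IL-4. The 3 knockout IL-4 libraries of Impact were the highest of the 10.

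The knockout IL-4 group stood low for Saa3 (chr7, ENSMUSG00000040026), an acute-phase serum amyloid that large peritoneal macrophages express. Saa3 was at 2436 and 3289 CPM in the wild-type basal libraries, 4775, 3708 and 4029.7 in wild-type IL-4, 9168 and 3764 in knockout basal and 998, 999 and 719.5 in knockout IL-4. IL-4 lowered it by log2 -2.84 ± 0.31 in the knockout, whereas in the wild type its change was 0.54 ± 0.31 (edgeR adjusted p = 0.339). The term was -3.38 ± 0.44 (edgeR adjusted p = 0.00112). Cxcl13, the chemokine by which peritoneal macrophages attract B cells, was likewise lowest in the knockout IL-4 libraries, with a term of -3.49 ± 0.58 (edgeR adjusted p = 0.00557). Cxcl13 was at 729 and 948 CPM in the wild-type basal libraries, 352, 493 and 408 in wild-type IL-4, 1348 and 889 in knockout basal and 86.8, 37.2 and 25 in knockout IL-4. Its knockout IL-4 libraries spread over 25.0 to 86.8 CPM, all below the 352 CPM of the lowest other library, and the call was lost without wild-type basal replicate 1 (adjusted p = 0.0519). Saa3, Cxcl13 and Apoc1, an apolipoprotein, were the called members of 30 tested markers of large peritoneal macrophages, all 3 lower, while the median term of the list was 0.45. The share called lower over all tested genes was 1.78%. Apoc1 was at 121 and 189 CPM in the wild-type basal libraries, 121, 81.2 and 126 in wild-type IL-4, 494 and 213 in knockout basal and 53.2, 45.6 and 55.4 in knockout IL-4. The term of Apoc1 was -2.27 ± 0.46 (edgeR adjusted p = 0.014), lost without knockout basal replicate 1 or wild-type basal replicate 1 (adjusted p 0.0574 to 0.0931). Gm8730 had a term of -3.87 ± 0.64 (edgeR adjusted p = 0.00464), but it is a near copy of the ribosomal gene Rplp0 (term 0.26 ± 0.31), so its reads may be shared and its value is uncertain.

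In 9 genes, picked out after their values were seen, the genotype difference passed in both conditions with opposite signs, and each kept a called interaction in all 10 fits that left out 1 library. Of these 9, Cep55 lost its call in the limma voom test (adjusted p = 0.102). Gatm is one of them. Fkbp5 (chr17, ENSMUSG00000024222), a chaperone of the glucocorticoid receptor and itself a target of it, had a term of -5.46 ± 0.62 (edgeR adjusted p = 0.000593). Fkbp5 was at 1.61 and 6.08 CPM in the wild-type basal libraries, 61.4, 57 and 56.8 in wild-type IL-4, 19.5 and 41.9 in knockout basal and 12.2, 9.37 and 10.1 in knockout IL-4. Knockout Fkbp5 differed from wild type by log2 2.99 ± 0.49 under basal conditions and by -2.47 ± 0.38 after IL-4. By the rule no single group carried it. Hal, the histidine ammonia-lyase that feeds glutamate from histidine, had a term of -2.4 ± 0.31 (edgeR adjusted p = 0.000829). Hal was at 45.9 and 59.3 CPM in the wild-type basal libraries, 253, 213 and 232 in wild-type IL-4, 115 and 149 in knockout basal and 113, 114 and 104 in knockout IL-4. Both knockout groups of Hal lay between the low wild-type basal and the high wild-type IL-4 libraries. Cbr2, a carbonyl reductase, had a term of -3.1 ± 0.43 (edgeR adjusted p = 0.00112) with the same order of means at both ends. Cbr2 was at 6.61 and 6.94 CPM in the wild-type basal libraries, 45.8, 27.1 and 32.6 in wild-type IL-4, 22 and 17.6 in knockout basal and 14.7, 11.8 and 9.45 in knockout IL-4. In Angptl4, a secreted inhibitor of lipoprotein lipase, the wild-type basal libraries held 1 count in all, so its fitted term of -8.59 ± 1.15 depends on the prior count and is no bound. Angptl4 was at 0 and 0.0856 CPM in the wild-type basal libraries, 8.97, 6.45 and 7.52 in wild-type IL-4, 3.57 and 2.59 in knockout basal and 1.22, 0.384 and 1.68 in knockout IL-4.

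The other 4 had a term above 0, as Gatm did. Ccdc80, a secreted matrix-associated protein, had a term of 4.12 ± 0.55 (edgeR adjusted p = 0.000942). Ccdc80 was at 10.1 and 6.94 CPM in the wild-type basal libraries, 26.9, 27 and 32.4 in wild-type IL-4, 2.05 and 0.626 in knockout basal and 57.9, 72.3 and 101 in knockout IL-4. Cep55, which acts in the last step of cell division, had a term of 4.71 ± 0.73 (edgeR adjusted p = 0.0024). Cep55 was at 1.89 and 3.77 CPM in the wild-type basal libraries, 4.74, 6.58 and 4.32 in wild-type IL-4, 0.216 and 0.447 in knockout basal and 11.7, 23.9 and 15.1 in knockout IL-4. In both genes IL-4 raised the knockout from the lowest to the highest of the 4 levels. Ctse, the protease cathepsin E, had a term of 2.44 ± 0.39 (edgeR adjusted p = 0.00277). Ctse was at 65.9 and 44.6 CPM in the wild-type basal libraries, 56.3, 58.3 and 62.7 in wild-type IL-4, 19.6 and 28.5 in knockout basal and 125, 179 and 115 in knockout IL-4. The term of 9130008F23Rik was 2.34 ± 0.37 (edgeR adjusted p = 0.00287).

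Cell division genes had positive terms in nearly the whole list. Of 43 tested genes of G2 and mitosis 41 had a term above 0, with a median of 1.62, and 9 were called, all higher. Over all tested genes 1.02% were called higher. IL-4 raised the list by a median of log2 1.28 in the wild type and 3.05 in the knockout, where it also started lower: the median genotype difference was -0.88 under basal conditions and 0.75 after IL-4. The summed level was 585 and 669 CPM in the wild-type basal libraries, 1064 to 1203 in the wild-type IL-4 libraries, 338 and 447 in the knockout basal libraries and 1668 to 2533 in the knockout IL-4 libraries, so no 2 groups overlapped. Spc25, a subunit of the NDC80 complex that ties kinetochores to microtubules, had a term of 2.2 ± 0.35 (edgeR adjusted p = 0.00287) and was carried by the knockout basal group. Spc25 was at 21.2 and 28 CPM in the wild-type basal libraries, 28.5, 34 and 30.5 in wild-type IL-4, 8.0 and 7.42 in knockout basal and 42.1, 48.8 and 42.8 in knockout IL-4. Cdk1, the kinase that starts mitosis, had a term of 2.83 ± 0.57 (edgeR adjusted p = 0.012), also carried by the knockout basal group. Cdk1 was at 6.61 and 12.8 CPM in the wild-type basal libraries, 15.2, 10.4 and 18.3 in wild-type IL-4, 1.08 and 2.68 in knockout basal and 18.7, 23.2 and 19.6 in knockout IL-4. Spc24, the partner of Spc25, had a term of 2.57 ± 0.53 (edgeR adjusted p = 0.0135). The call of Spc24 was lost without knockout basal replicate 1 (adjusted p = 0.0795), and that of Cdk1 without knockout basal replicate 1 or wild-type basal replicate 2 (adjusted p 0.0634 to 0.0765).

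The other called members, named here beyond the rule because the list is described by them, were Nusap1, Mki67, Sgo1, Top2a, Hmmr and Cenpe. Mki67, the proliferation marker Ki-67, had a term of 2.79 ± 0.63 (edgeR adjusted p = 0.0297). Mki67 was at 14.4 and 21.2 CPM in the wild-type basal libraries, 36.6, 69.9 and 62.9 in wild-type IL-4, 10.2 and 11.3 in knockout basal and 164, 129 and 412 in knockout IL-4. Top2a, which untangles DNA before chromosomes part, had a term of 2.05 ± 0.49 (edgeR adjusted p = 0.035). Top2a was at 64.6 and 70.3 CPM in the wild-type basal libraries, 109, 129 and 97.9 in wild-type IL-4, 23.5 and 49.6 in knockout basal and 213, 167 and 375 in knockout IL-4. For both, the 3 knockout IL-4 libraries were above all others, and replicate 3 was the highest. The call of Mki67 was lost without knockout basal replicate 1 or 2, wild-type basal replicate 2 or wild-type IL-4 replicate 1 or 3 (adjusted p 0.0509 to 0.149), and that of Top2a without knockout basal replicate 1, knockout IL-4 replicate 3, wild-type basal replicate 1 or 2 or wild-type IL-4 replicate 1, 2 or 3 (adjusted p 0.0558 to 0.154). Nusap1, a spindle-associated protein, had a term of 3.45 ± 0.72 (edgeR adjusted p = 0.02), lost without wild-type basal replicate 1 or 2 (adjusted p 0.0519 to 0.0868). Kif14 and Knl1, a mitotic kinesin and a kinetochore scaffold outside the list, were among the 12 largest positive terms, at 4.69 ± 1.03 (edgeR adjusted p = 0.0212) and 3.77 ± 0.83 (edgeR adjusted p = 0.0255). Kif14 was lost without knockout basal replicate 2, wild-type basal replicate 2 or wild-type IL-4 replicate 1 (adjusted p 0.0548 to 0.114), and Knl1 without knockout basal replicate 1, wild-type basal replicate 2 or wild-type IL-4 replicate 1 or 3 (adjusted p 0.0559 to 0.15). The number of called members rests on single libraries: it was 2 without knockout basal replicate 1 or wild-type basal replicate 2, 4 without wild-type IL-4 replicate 1, 5 when replicate 3 of either IL-4 group was left out, 6 without wild-type basal replicate 1 or wild-type IL-4 replicate 2, while knockout basal replicate 2 left out gave 14. The limma voom test called 4 and DESeq2 15.

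The promoters of 4 of these genes are shown because they hold the letters of 2 elements known from mitotic genes. The cell cycle genes homology region (CHR, TTTGAA) is bound by the DREAM complex and the CCAAT box (CCAAT) by NF-Y. Each sequence runs 5′ to 3′ on the strand of the gene, from 250 bases before to 50 bases after the start given by RefSeq (GRCm38.p6), and capitals mark either element, read on either strand.
Spc25 (chr2:69206164-69206463, minus strand): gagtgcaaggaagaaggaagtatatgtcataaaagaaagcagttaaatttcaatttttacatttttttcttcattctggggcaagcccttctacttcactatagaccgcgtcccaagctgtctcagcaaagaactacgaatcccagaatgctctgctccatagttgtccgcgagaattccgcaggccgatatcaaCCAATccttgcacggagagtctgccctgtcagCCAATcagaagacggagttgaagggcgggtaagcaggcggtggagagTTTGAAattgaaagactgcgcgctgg
Cdk1 (chr10:69352863-69353162, minus strand): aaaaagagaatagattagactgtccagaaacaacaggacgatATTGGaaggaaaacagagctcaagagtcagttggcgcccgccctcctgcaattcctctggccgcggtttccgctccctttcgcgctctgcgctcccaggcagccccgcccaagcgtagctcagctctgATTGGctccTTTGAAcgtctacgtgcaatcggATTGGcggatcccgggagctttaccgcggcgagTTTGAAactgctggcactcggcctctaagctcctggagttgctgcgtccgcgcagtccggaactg
Mki67 (chr7:135716330-135716629, minus strand): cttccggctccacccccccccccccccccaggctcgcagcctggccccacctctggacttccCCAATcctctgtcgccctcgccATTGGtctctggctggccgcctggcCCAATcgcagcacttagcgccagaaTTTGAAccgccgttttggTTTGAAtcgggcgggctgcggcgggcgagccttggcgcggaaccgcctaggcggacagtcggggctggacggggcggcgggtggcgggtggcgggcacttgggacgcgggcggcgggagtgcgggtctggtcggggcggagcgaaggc
Top2a (chr11:99024140-99024439, minus strand): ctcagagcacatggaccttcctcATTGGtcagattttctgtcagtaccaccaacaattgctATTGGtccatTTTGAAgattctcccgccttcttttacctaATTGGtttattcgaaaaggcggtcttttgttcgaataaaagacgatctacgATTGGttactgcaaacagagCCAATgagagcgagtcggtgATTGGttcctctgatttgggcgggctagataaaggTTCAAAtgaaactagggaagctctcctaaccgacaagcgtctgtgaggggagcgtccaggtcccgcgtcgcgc
Of the 9 called members 8 had a promoter in the RefSeq table, and 5 of these 8 held both elements. Among the tested members it was 23 of 36 genes with a promoter. Of all 32851 promoters of this length 17.9% held a CHR, 37.4% a CCAAT box and 6.95% both. The 2 elements do not overlap each other in their letters. A match is a description of the sequence and not a binding site.

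The median term of DNA replication genes was also above 0, but smaller than that of the mitotic ones. Of 43 tested genes of S phase 3 were called, all higher, with 30 terms above 0 and a median of 0.72. Over all tested genes 1.02% were called higher. Clspn, the checkpoint mediator claspin, had a term of 2.63 ± 0.47 (edgeR adjusted p = 0.00598). Clspn was at 15.2 and 14 CPM in the wild-type basal libraries, 16.1, 29.7 and 22.6 in wild-type IL-4, 2.92 and 6.62 in knockout basal and 44.1, 48.6 and 47.2 in knockout IL-4. Ccne2, cyclin E2, had a term of 2.42 ± 0.49 (edgeR adjusted p = 0.0123) and was carried by the knockout basal group, and the call was lost without knockout basal replicate 2 (adjusted p = 0.0709). Pola1, the catalytic subunit of DNA polymerase alpha, had a term of 2.13 ± 0.50 (edgeR adjusted p = 0.0279), lost without knockout basal replicate 1 or 2, wild-type basal replicate 2 or wild-type IL-4 replicate 1 or 2 (adjusted p 0.0587 to 0.152). The summed level was 360 and 492 CPM in the knockout basal libraries, 563 to 621 CPM in both wild-type groups together and 710 to 869 CPM in the knockout IL-4 libraries.

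Genes known to respond to glucocorticoids had negative terms in 21 of 22 tested members, with a median of -1.03, and 8 were called, all lower. Over all tested genes 1.78% were called lower. IL-4 raised the list by a median of log2 1.28 in the wild type, whereas the median in the knockout was -0.02. Fkbp5, Crispld2 and Zbtb16, described above, led the list. The 5 further called members, outside the naming rule, were Tgm2, Klf9, Map3k6, Mt2 and Tsc22d3. Tsc22d3 encodes GILZ, a mediator of glucocorticoid action. Tsc22d3 was at 69.1 and 32.2 CPM in the wild-type basal libraries, 105, 84.1 and 98.6 in wild-type IL-4, 107 and 100.3 in knockout basal and 49.8, 71 and 47.7 in knockout IL-4. Its term was -1.8 ± 0.42 (edgeR adjusted p = 0.0294). Klf9, a transcription factor induced by glucocorticoids, had a term of -1.74 ± 0.37 (edgeR adjusted p = 0.0167) and was carried by the wild-type basal group standing low. Klf9 was at 292 and 271 CPM in the wild-type basal libraries, 846, 877 and 974 in wild-type IL-4, 509 and 971 in knockout basal and 901, 588 and 632 in knockout IL-4. Mt2, a metal-binding metallothionein, had a term of -2.47 ± 0.57 (edgeR adjusted p = 0.0279) and was carried by the wild-type IL-4 group standing high. Mt2 was at 3.12 and 2.4 CPM in the wild-type basal libraries, 19, 15.8 and 13.6 in wild-type IL-4, 2.92 and 5.19 in knockout basal and 2.95, 5.99 and 3.93 in knockout IL-4. The carrying group thus differed among the called members: 3 by wild-type IL-4, 1 each by wild-type and knockout basal and 3 by none. The call of Tsc22d3 was lost without knockout basal replicate 1 or 2, knockout IL-4 replicate 3, wild-type basal replicate 2 or wild-type IL-4 replicate 1 or 3 (adjusted p 0.0594 to 0.116), that of Klf9 without knockout basal replicate 2 or wild-type basal replicate 2 (adjusted p 0.0618 to 0.124) and that of Mt2 without knockout basal replicate 2, knockout IL-4 replicate 3, wild-type basal replicate 2 or wild-type IL-4 replicate 1 or 2 (adjusted p 0.0566 to 0.174). The summed level was 2695 and 3206 CPM in the wild-type basal libraries, 4896 to 5085 in the wild-type IL-4 libraries, 3466 and 4087 in the knockout basal libraries and 3752 to 3946 in the knockout IL-4 libraries. Without wild-type basal replicate 2 the test called 3 members, and 4 without knockout basal replicate 2 or wild-type IL-4 replicate 1.

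**Figure D5:**
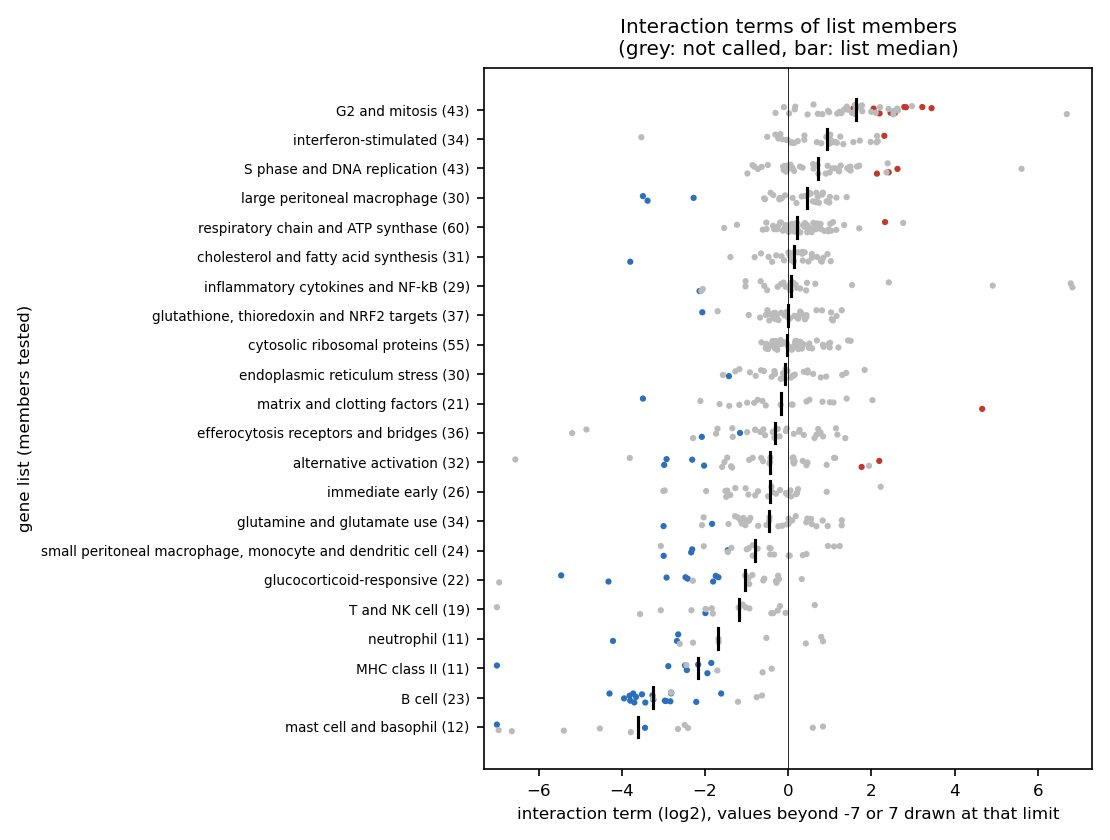
Interaction terms (log2, x axis) of the tested members of each list of 10 or more tested genes, with called members in red (higher) or blue (lower), others in grey and the list median as a black bar. B cell, MHC class II and glucocorticoid-responsive members lie mostly below 0 and G2 and mitosis members above 0, against a median of 0.01 over all tested genes.

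Alternative activation, the program most tied to IL-4, had called members in both directions: 2 higher and 4 lower of 32, with a median term of -0.44. Over all tested genes 1.02% were called higher and 1.78% lower. Clec10a, a C-type lectin of alternatively activated macrophages, had a term of -2.31 ± 0.36 (edgeR adjusted p = 0.00227). Clec10a was at 14.9 and 14.6 CPM in the wild-type basal libraries, 162, 134 and 146 in wild-type IL-4, 23 and 21.9 in knockout basal and 43.6, 57.5 and 34.9 in knockout IL-4. IL-4 raised Clec10a by log2 3.32 ± 0.28 in the wild type and 1.01 ± 0.25 in the knockout. Pdcd1lg2, the gene of PD-L2, a ligand of the inhibitory receptor PD-1, had a term of -2.98 ± 0.57 (edgeR adjusted p = 0.00863) and was carried by the knockout basal group standing high. Pdcd1lg2 was at 2.08 and 3.17 CPM in the wild-type basal libraries, 4.4, 4.45 and 6.07 in wild-type IL-4, 16 and 15.3 in knockout basal and 5.28, 2.92 and 3.04 in knockout IL-4. Ccl24, an eosinophil-attracting chemokine, had a term of 1.76 ± 0.31 (edgeR adjusted p = 0.00557). Ccl24 was at 211 and 157 CPM in the wild-type basal libraries, 81.3, 82 and 78.4 in wild-type IL-4, 108 and 103 in knockout basal and 141, 184 and 146 in knockout IL-4. IL-4 lowered Ccl24 in the wild type, and in the knockout its change was 0.57 (edgeR adjusted p = 0.138).

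The classical markers of alternative activation, added after their values were seen, split. Chil3, the chitinase-like protein Ym1, had a term of -2.02 ± 0.43 (edgeR adjusted p = 0.0171). Chil3 was at 1.51 and 1.37 CPM in the wild-type basal libraries, 2003, 1498 and 1628 in wild-type IL-4, 1.41 and 1.34 in knockout basal and 501, 397 and 308 in knockout IL-4. It was almost absent with saline in both genotypes, and after IL-4 the knockout reached 402 CPM on average against 1710 CPM in the wild type. Its call was lost without knockout basal replicate 1 or 2 or wild-type basal replicate 2 (adjusted p 0.0634 to 0.0795). Arg1, arginase 1, had a term of -1.53 ± 0.41 (edgeR adjusted p = 0.0611), and Retnla, which encodes RELM alpha, one of 1.1 ± 0.31 (edgeR adjusted p = 0.0699), in the opposite direction. Neither passed. Mrc1, the mannose receptor, had a term of -0.45 ± 0.54 (edgeR adjusted p = 0.764). Without knockout basal replicate 1, 3 members of the list passed, and 4 without knockout basal replicate 2, wild-type basal replicate 2 or wild-type IL-4 replicate 1.

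The 34 tested genes of glutamine and glutamate use, amino acids that feed the TCA cycle, transamination and glutathione synthesis, had a median term of -0.45. Slc1a5, the glutamine transporter ASCT2, was called lower. Slc1a5 was at 11.8 and 13.5 CPM in the wild-type basal libraries, 19.4, 14.6 and 16.8 in wild-type IL-4, 23.9 and 35.1 in knockout basal and 12.6, 11.1 and 9.53 in knockout IL-4. Its term of -1.83 ± 0.40 (edgeR adjusted p = 0.0193) was carried by the knockout basal group standing high and was lost without knockout basal replicate 2, wild-type basal replicate 1 or 2 or wild-type IL-4 replicate 1 (adjusted p 0.0501 to 0.123). Glul, which makes glutamine from glutamate, had a term of -1.02 ± 0.37 (edgeR adjusted p = 0.178), and Glud1, glutamate dehydrogenase, one of 0.46 ± 0.41 (edgeR adjusted p = 0.657). Glutathione, thioredoxin and NRF2 target genes had 1 called member of 37, against 2.81% called over all tested genes, and a median of -0.01. Gpx3, a secreted glutathione peroxidase, rose with IL-4 in the wild type from 3.87 and 4.37 to 25.2 to 34.2 CPM and stood at 6.92 and 9.75 CPM in knockout basal and 11.1 to 19.6 CPM in knockout IL-4 libraries. Its term of -2.06 ± 0.46 (edgeR adjusted p = 0.0212) was lost without knockout basal replicate 2, wild-type basal replicate 1 or 2 or wild-type IL-4 replicate 1 (adjusted p 0.0598 to 0.117).

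Other programs had at most 1 called member, where 2.81% of all tested genes were called. Interferon-stimulated genes had 26 of 34 terms above 0 and a median of 0.93, with Iigp1, an immunity-related GTPase, called at 2.31 ± 0.55 (edgeR adjusted p = 0.0325). Iigp1 was at 27.2 and 44.4 CPM in the wild-type basal libraries, 9.22, 11.9 and 5.66 in wild-type IL-4, 10.7 and 20.6 in knockout basal and 26.3, 13.7 and 18.6 in knockout IL-4. The call was lost without knockout basal replicate 1, knockout IL-4 replicate 3, wild-type basal replicate 2 or wild-type IL-4 replicate 1 or 3 (adjusted p 0.0537 to 0.161). Endoplasmic reticulum stress had a median of -0.07 over 30 genes, with Syvn1, a ubiquitin ligase of protein quality control, called at -1.42 ± 0.35 (edgeR adjusted p = 0.0393) and lost without knockout basal replicate 1 or 2, knockout IL-4 replicate 1 or 3, wild-type basal replicate 2 or wild-type IL-4 replicate 1, 2 or 3 (adjusted p 0.0597 to 0.166). Inflammatory cytokine and NF-kB genes had a median of 0.06 over 29 genes, with Traf1, a signalling adaptor of TNF receptors, called at -2.13 ± 0.53 (edgeR adjusted p = 0.0395) and lost without knockout basal replicate 1 or 2, knockout IL-4 replicate 1, 2 or 3, wild-type basal replicate 1 or wild-type IL-4 replicate 1, 2 or 3 (adjusted p 0.0523 to 0.195). Cytosolic ribosomal proteins had no called member of 55 and a median of -0.04, and Rpl22 and Rpsa, those with the smallest p, had terms of 1.5 ± 0.51 (edgeR adjusted p = 0.159) and 1.01 ± 0.42 (edgeR adjusted p = 0.264). Immediate early genes, which rise when cells are handled, had no called member of 26 and a median of -0.44, and the smallest p were those of Ier5 at -1.39 ± 0.37 (edgeR adjusted p = 0.0546) and Rhob at -1.51 ± 0.40 (edgeR adjusted p = 0.0565).

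Mast cell genes had the most negative median of the lists with 10 or more tested members, -3.61 over 12 genes, though 2 were called. The share called over all tested genes was 2.81%. Tpsb2, a mast cell tryptase, had a term of -3.44 ± 0.59 (edgeR adjusted p = 0.00481), a call lost in the limma voom test (adjusted p = 0.107). That test called 0 of the 12. Tpsb2 was at 5.29 and 5.91 CPM in the wild-type basal libraries, 0.761, 0.864 and 0.515 in wild-type IL-4, 24.8 and 32.9 in knockout basal and 0.305, 0.384 and 0.32 in knockout IL-4. The level was lower after IL-4 in both genotypes, from a higher start in the knockout. Mcpt4, a mast cell chymase, was at 21.5 and 39.4 CPM in the knockout basal libraries and had no count in the 3 knockout IL-4 libraries, so its term is a bound, -5.96 or lower with the group set to 3 counts over its libraries. The edgeR adjusted p was 0.0177, lost without knockout basal replicate 2, wild-type basal replicate 1 or 2 or wild-type IL-4 replicate 2 (adjusted p 0.0591 to 0.0771). The summed mast cell and basophil markers were 84.7 and 134 CPM in wild-type basal, 38.1 to 50.7 in wild-type IL-4, 195 and 325 in knockout basal and 36.1 to 44.4 in knockout IL-4 libraries. Outside knockout basal most of the sum came from Hdc, which is also on the neutrophil list. Hdc was at 54.1 and 105, 34.5 to 46.4, 29.2 and 54.3, and 34.0 to 42.6 CPM in the same order. Its term was 0.84 ± 0.45 (edgeR adjusted p = 0.398), opposite in sign to the list median. Hba-a1, a hemoglobin gene of red cells and the called member of 4 tested erythroid genes, likewise had no count after IL-4 in the knockout, with a bound of -7.50 or lower (edgeR adjusted p = 0.0126, lost without knockout basal replicate 1 (adjusted p = 0.0537)).

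Markers of the remaining cell types gave small counts, to be set against 2.81% of all tested genes called, 1.02% higher and 1.78% lower. Neutrophil genes had 3 called members of 11, all lower, with a median of -1.68: Mmp8, S100a8 and S100a9, the last 2 being the chains of calprotectin. S100a8 was at 5.67 and 8.22 CPM in the wild-type basal libraries, 24.2, 19.6 and 23.7 in wild-type IL-4, 16.2 and 12.9 in knockout basal and 8.53, 9.37 and 4.65 in knockout IL-4. The term of S100a8 was -2.64 ± 0.48 (edgeR adjusted p = 0.00586), and that of S100a9 was -2.67 ± 0.65 (edgeR adjusted p = 0.0419), lost without knockout basal replicate 1, knockout IL-4 replicate 1, 2 or 3, wild-type basal replicate 1 or wild-type IL-4 replicate 1, 2 or 3 (adjusted p 0.0538 to 0.213). The summed level of the 11 genes was 1832 and 1834 CPM in wild-type basal, 933 to 1079 in wild-type IL-4, 1180 and 1583 in knockout basal and 841 to 997 in knockout IL-4 libraries, most of it from Padi4, so the sum was highest in the wild-type basal libraries. Of 24 tested markers of dendritic cells, monocytes and small peritoneal macrophages 4 were called, all lower, with a median of -0.79: Clec10a, Napsa, Plac8 and Lyz1. Napsa, an aspartic protease, had a term of -2.99 ± 0.42 (edgeR adjusted p = 0.00116) and Plac8 one of -2.33 ± 0.45 (edgeR adjusted p = 0.00947), both carried by the knockout basal group standing high. Lyz1 is a near copy of the highly expressed Lyz2, so its reads may be shared and its term of -1.45 ± 0.34 (edgeR adjusted p = 0.0296) is uncertain, and the call was lost without knockout basal replicate 1, knockout IL-4 replicate 3, wild-type basal replicate 2 or wild-type IL-4 replicate 1 or 3 (adjusted p 0.0583 to 0.21). The summed level of the 24 was 5150 and 7662 CPM in wild-type basal, 9802 to 11321 in wild-type IL-4, 8716 and 8730 in knockout basal and 14259 to 16706 in knockout IL-4 libraries. It was highest after IL-4 in the knockout although the median term was negative. A large part of the sum after IL-4 came from 1 member, Retnla. Retnla was at 5277 to 7821 CPM in knockout IL-4, 2741 to 3947 in wild-type IL-4 and 233 to 295 in the basal libraries. T and NK cell genes had 1 called member of 19, the adhesion receptor Cd2 at -1.99 ± 0.40 (edgeR adjusted p = 0.0125), with a median of -1.19. Their sum was 137 and 117 CPM in knockout basal and 37.8 to 58.5 CPM in the other 8 libraries. Most of the knockout basal sum came from Cd2 itself, with 781 and 921 counts, so it mainly restates that 1 gene. Eosinophil genes had 1 called member of 4, Il5ra, the IL-5 receptor chain that B-1 cells also carry, at -2.48 ± 0.63 (edgeR adjusted p = 0.0493), lost without knockout basal replicate 1 or 2, knockout IL-4 replicate 1, 2 or 3, wild-type basal replicate 2 or wild-type IL-4 replicate 2 or 3 (adjusted p 0.0607 to 0.183). Mesothelial and fibroblast genes had none of 3, and Krt8 and Lrrn4 had terms of 1.04 ± 1.63 (edgeR adjusted p = 0.826) and 2.15 ± 2.84 (edgeR adjusted p = 0.785).

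Several genes with a large negative term stand on no list. Cacna1i, a T-type calcium channel subunit, had a term of -4.19 ± 0.68 (edgeR adjusted p = 0.00327). Cacna1i was at 0.85 and 0.942 CPM in the wild-type basal libraries, 3.89, 3.46 and 3.09 in wild-type IL-4, 12.4 and 10.1 in knockout basal and 3.35, 1.46 and 2.32 in knockout IL-4. B3gnt5, a glycolipid-modifying enzyme, had a term of -4.42 ± 0.67 (edgeR adjusted p = 0.00249). B3gnt5 was at 0.85 and 4.54 CPM in the wild-type basal libraries, 9.3, 8.91 and 11.3 in wild-type IL-4, 26.4 and 43.3 in knockout basal and 4.47, 6.83 and 6.17 in knockout IL-4. Kctd14 had a term of -4.0 ± 0.69 (edgeR adjusted p = 0.00488). Kcna3, a potassium channel known from lymphocytes, had a term of -4.5 ± 0.87 (edgeR adjusted p = 0.00969), carried by the wild-type basal group standing low and lost without wild-type basal replicate 2 (adjusted p = 0.0634). Edaradd, an adaptor of the ectodysplasin receptor, had a term of -5.05 ± 1.0 (edgeR adjusted p = 0.0108), lost without knockout basal replicate 2 (adjusted p = 0.0533). Cd22 and Fcrl5, inhibitory receptors on the B cell list, reached terms of -3.94 ± 0.49 (edgeR adjusted p = 0.000635) and -4.29 ± 0.76 (edgeR adjusted p = 0.00557). Knockout basal libraries held the highest level of each of these 7 genes. On the positive side, Myh7, a myosin heavy chain, had a term of 4.78 ± 0.84 (edgeR adjusted p = 0.00569), lost without knockout basal replicate 1 (adjusted p = 0.0501). Myh7 was at 4.34 and 3.77 CPM in the wild-type basal libraries, 6.85, 10.2 and 2.26 in wild-type IL-4, 0.324 and 0.716 in knockout basal and 19.4, 17.7 and 35.2 in knockout IL-4. F830016B08Rik stood low in the knockout basal libraries at 11.5 and 11.6 CPM against 29.4 to 71.8 CPM in the other 8, with a term of 2.83 ± 0.40 (edgeR adjusted p = 0.00112).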

How the data were processed

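Polyadenylated RNA of sorted peritoneal macrophages was measured in 10 libraries. The authors deposited counts of reads for each gene. STAR, HTSeq and the mm10 build are named in the submitters' processing notes; versions, annotation and strand setting are not given in the sources used here, so reads of overlapping or antisense genes cannot be told apart. Of 22165 identifiers, 420 had no symbol and 7409 had no count in any library; identifiers without a symbol were kept and none was called. Names and positions came from GENCODE M21 by Ensembl identifier. Counted reads per library ranged from 8762403 to 15024073.

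Counts were filtered with filterByExpr (minimum count 10, minimum total 15), scaled with TMM and fitted in edgeR 4.0.16 (R 4.3.3) by quasi-likelihood with robust dispersion and 4 group means, leaving 6 residual degrees of freedom, with a biological coefficient of variation of 28.4% in common. The interaction and the 4 simple contrasts were tested two-sided and adjusted by Benjamini-Hochberg over 11614 genes, and called under 0.05. The value after ± is an approximate standard error, the size of the term divided by the square root of its quasi-likelihood F statistic. Group means of log2(CPM + 1) gave the carrying group. Where a group had no counts, it was set to 3 counts over its libraries, which covers counting error only.

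Named genes were Lyz2; the 12 largest positive and 12 largest negative called terms among genes of at least 10 CPM in the highest group; the 2 smallest p for each carrying group and side; and up to 3 called members of each of 25 lists, or 2 as values where none was called. The members and lists were chosen with earlier results of these data known. A gene that the rule also names is not reported here. Genes named outside the rule are said to be so or stand on a list beside its count. 

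Alternatives were DESeq2 size factors, library totals, other filters, no robust dispersion, DESeq2 1.42.0, limma 3.58.1 voom, the replicate number as a block, leaving out each library, another pseudocount and a stricter carrier rule. The summed B cell markers as a covariate were added after the data were seen. Same-numbered libraries of different groups did not deviate together (r from -0.136 to 0.077 over 13 pairs), which gives no sign that the numbers pair the samples. It cannot exclude pairing, since the 2 libraries of a basal group deviate from their mean as mirror images. No 2 libraries of a group agreed within sampling noise. Leaving out 1 library of a basal group assumes that the other varies like the rest.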

Additional observations from a re-analysis of the deposited data

Results flagged for a closer look

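The interaction is itself a test of whether the IL-4 response differs between the genotypes, so every called gene is a result of this kind: 326 genes in all, 119 higher and 207 lower. The 9 genes in which the genotype difference passed with saline and after IL-4 in opposite directions have these terms (log2): Gatm 4.15, Cep55 4.71, Ccdc80 4.12, Ctse 2.44 and 9130008F23Rik 2.34 above 0, where the knockout was lower with saline and higher after IL-4, and Angptl4 -8.59, Fkbp5 -5.46, Cbr2 -3.10 and Hal -2.40 below 0, where it was higher with saline and lower after IL-4. That of Angptl4 rests on 1 count in the wild-type basal libraries. No group has more than 3 libraries, so a single library standing apart within its group was not looked for.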

How the results depend on the processing

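The counts as reported were 326 called genes, 119 higher and 207 lower, carried by knockout basal in 111, wild-type basal in 51, wild-type IL-4 in 10, knockout IL-4 in 10 and no single group in 144. They were 819 (487 and 332) with no filter, 210 (79 and 131) with a mean of at least 10 CPM, 623 (289 and 334) by DESeq2, which called all 326 as well, and 241 (79 and 162) by limma voom. Among genes named by the rule, limma voom lost the calls of Cep55, Spp1, Tpsb2, Myh7, Mmp8, Kcna3, Edaradd, Cdk1, Spc24, Mcpt4, Kif14, Gpx3, Knl1, Col18a1, Traf1 and Il5ra (adjusted p 0.0578 to 0.173). With library totals in place of TMM the median term of all genes shifted to -0.17 and 367 genes were called, 92 higher and 275 lower, which takes the share of higher genes from 36.5% to 25.1%. With DESeq2 size factors it was 318. Leaving out 1 library gave 182 to 397 called genes, 45 to 177 higher and 137 to 220 lower; the carried counts ranged over 79 to 118 for knockout basal, 25 to 94 for wild-type basal, 3 to 12 for wild-type IL-4, 5 to 25 for knockout IL-4 and 57 to 187 for no single group. When the other 3 groups had to span at most 33.3% of the term these were 61, 32, 6, 6 and 221. The replicate number as a block gave 282 called genes, 263 of them among the 326. No library of a group correlated best with its own number, which is no sign of pairing but does not exclude it.

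With the summed B cell markers as a covariate, added after the data were seen, edgeR called 0 genes, 0 higher and 0 lower (931 at an unadjusted p under 0.05). The covariate lies 95.6% between the groups, so the standard error of the term grew 3.56-fold by construction, and covariate and groups cannot be told apart in this design. The sign reversed in 11 named genes, none past the threshold: Fkbp5 0.94, B3gnt5 1.62, H2-Eb1 0.40, Plac8 1.51, Edaradd 1.18, Cd2 0.53, Traf1 0.16 and S100a9 1.90, and Spp1 -2.27, Clec5a -0.44 and Col18a1 -2.98. Of 76 named called genes 47 kept their call in each fit without 1 library. Groups of 2 and 3 libraries and the depth of genes under about 10 CPM limit what the term can show.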

Other observations

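Fpr2 and Fpr1 were picked after their values were seen and stand on no list. Fpr2, a formyl peptide receptor, had a term of -2.48 ± 0.38 (edgeR adjusted p = 0.00223). Fpr2 was at 27.8 and 44.3 CPM in the wild-type basal libraries, 106, 97.8 and 91.2 in wild-type IL-4, 46.7 and 69.9 in knockout basal and 32.3, 25 and 28.1 in knockout IL-4. The wild-type IL-4 libraries were the highest and the knockout IL-4 libraries overlapped the wild-type basal ones. Fpr1, its relative, had a term of -2.63 ± 0.50 (edgeR adjusted p = 0.00854) and was carried by the knockout IL-4 group standing low. Fpr1 was at 7.84 and 7.19 CPM in the wild-type basal libraries, 12.8, 9.37 and 14.9 in wild-type IL-4, 11.7 and 12.9 in knockout basal and 4.47, 2.46 and 2.88 in knockout IL-4.

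The knockout IL-4 group also stood high for Tiam1, an exchange factor for the GTPase Rac. Tiam1 was at 201 and 168 CPM in the wild-type basal libraries, 109.8, 153 and 130.4 in wild-type IL-4, 192 and 148 in knockout basal and 446, 302 and 288 in knockout IL-4. The term of Tiam1 was 1.51 ± 0.35 (edgeR adjusted p = 0.0275). The call was lost without knockout basal replicate 1 or 2, wild-type basal replicate 1 or wild-type IL-4 replicate 1 or 3 (adjusted p 0.0553 to 0.149).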
